A study of Mus musculus with 10 samples.

Results

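The genes described here are the developmental pluripotency associated (*Dppa*) genes and a set of genes that mark the 2-cell-like state of mouse embryonic stem cells (ESCs). They are *Dppa2*, *Dppa3*, *Dppa4*, *Dppa5a*, *Zscan4c*, *Zscan4d*, *Zscan4f*, *Zfp352*, *Tcstv1* and *Tcstv3*, 10 genes beside the 20972 genes that had a probe on the array. A probe was counted as theirs when its transcript identifier belonged to one of these genes and it was present on every array. By this rule 15 of the 55681 probes were found, 7 for the *Dppa* genes and 8 for the other genes. They covered 9 of the 10 genes, and *Zscan4d* had no probe of its own.

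The samples were E14 ESCs (129/Ola background), cultured on gelatin with 1000 U/ml Lif, on 10 single-colour Agilent expression arrays. Control cells (3 biological replicates) received non-targeting guide RNAs and dCas9 alone. Hottip gRNA cells (4 biological replicates) and Hoxa13 gRNA cells (3 biological replicates) received a pool of 5 guide plasmids against the promoter of *Hottip* or of *Hoxa13*, together with dCas9-VP160, a Cas9 without nuclease activity that is fused to a transcriptional activator. All groups were selected with 2 µg/ml puromycin for 24 h and RNA was taken 48 h after transfection. As the labels describe it, the control lacked VP160 as well as the targeting guides, so the effects of the activator domain and of the guides cannot be told apart in a comparison with control. Each culture was transfected transiently and measured in bulk.

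A fertilised mouse egg switches on its own genome at the 2-cell stage, and a burst of transcripts, including the *Zscan4* cluster, *Zfp352*, *Tcstv1* and *Tcstv3* and the endogenous retrovirus MERVL, marks that step. In ESC cultures a small and changing fraction of cells re-enters a state with the same transcripts, the 2-cell-like state, in which the transcription factor Dux is the main activator. Dppa2 and Dppa4 are DNA-binding partners with a SAP domain that act upstream of *Dux*. Dppa3 (Stella) is a maternal factor that protects DNA methylation in the early embryo, and Dppa5a is a small RNA-binding protein of the KH domain family. In a bulk sample a change in the number of cells in the 2-cell-like state and a change in RNA per cell cannot be told apart.

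The *Zscan4* genes are paralogs, and their promoters are shown because they are nearly the same sequence in 3 members of the set. The stretches below were read from the RefSeq annotation of the GRCm38.p6 assembly (chr7:11005651-11005736 on the plus strand, chr7:11166168-11166253 on the minus strand and chr7:11397844-11397929 on the plus strand), 5′ to 3′ with the TATAAA letters in capitals.
Zscan4c: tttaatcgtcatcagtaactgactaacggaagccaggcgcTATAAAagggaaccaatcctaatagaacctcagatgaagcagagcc
Zscan4d: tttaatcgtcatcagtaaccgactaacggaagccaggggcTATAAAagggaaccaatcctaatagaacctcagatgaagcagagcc
Zscan4f: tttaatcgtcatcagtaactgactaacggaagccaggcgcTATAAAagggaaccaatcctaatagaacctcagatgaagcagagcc
Over these 86 bases *Zscan4c* and *Zscan4f* were the same letter for letter, and *Zscan4d* differed from each of them at 2 positions. Over the longer stretch that the promoter windows share, *Zscan4c* and *Zscan4f* differed at 2 of 277 bases (99.3% identity), *Zscan4c* and *Zscan4d* at 8 of 289 (97.2%), and *Zscan4d* and *Zscan4f* at 7 of 266 (97.4%). The letters TATAAA were found on either strand in 13.6% of the 32851 promoters of 300 bases. This comparison covers promoters and not the transcripts that probes read. No probe sequences were used here, so how far a *Zscan4c* or *Zscan4f* probe also reads its paralogs is uncertain.

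The *Zfp352* promoter is shown for a different feature, a run of TAATCC repeats just upstream of the start (chr4:90218592-90218769, GRCm38.p6, plus strand, TAATCC in capitals).
Zfp352: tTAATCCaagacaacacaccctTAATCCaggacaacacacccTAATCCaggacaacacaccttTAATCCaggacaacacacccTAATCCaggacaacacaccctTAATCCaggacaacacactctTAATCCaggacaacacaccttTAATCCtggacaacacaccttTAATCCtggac
These 178 bases held 9 copies of TAATCC. At least 1 copy on either strand was found in 7.06% of all promoters, and 9 or more were found in 1 promoter, that of *Zfp352* itself. A match of letters is a description of the sequence and not a measured binding site. The promoter table held 4 of the 10 genes, and the other 6 are not shown.

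Array-wide checks came first. *Hottip* had no matched probe. *Hoxa13*, which lies next to *Hottip*, was detected with Hottip gRNAs on 4 of 4 arrays and in control cells on 0 of 3, and was at least 148-fold higher than control at 1 probe (limma adjusted p = 0.000112) and at least 96.9-fold higher at the other (adjusted p = 7.09e-05). These bounds, and those below, take each dim array at the higher of its own reading and the lowest signal detected on it. In the arrays labelled Hoxa13 gRNAs the same probes differed from control by 0.50 (adjusted p = 0.725) and 0.28 (adjusted p = 0.829) and rose well above background on 0 of these 3 arrays, so the label of these arrays is not borne out by the targeted gene and the group is named only as labelled. The 75th percentile of the signal ranged from 586 to 2572 intensity units, and 31.9 to 41.4% of probes were well above background per array. Between 0.312% and 7.28% of spots per array carried an outlier flag (highest on control replicate 3) and were left out. Hoxa13 gRNA replicates 1 and 2 were on 1 slide and the other 8 arrays on the second. Hoxa13 gRNA replicate 1 also stood apart in the slope of its spike-in controls, 1.155 against 0.900 to 0.982 on the other arrays. These differences between arrays move with the groups in part, and their part in the results below was not tested except through the alternatives given.

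All levels below are log2 signal minus the 75th percentile of the same array, so a level of 0 is a probe as bright as the upper quartile of its array. Levels depend on the probe and are compared only between arrays, never between probes. A probe was tested if 3 or more of the 10 arrays read it well above background, as defined by the scanner software, which held for 12 of the 15 probes. These stood for 4 *Dppa* genes and 3 of the 2-cell genes (*Zscan4c*, *Zscan4f* and *Zfp352*). No probe of the 10 genes passed limma's adjusted p of 0.05 over all tested probes in any comparison. Of all tested probes 0.718% passed in Hottip gRNA cells against control, 0.175% in Hoxa13 gRNA cells against control and 0.381% in Hottip gRNA against Hoxa13 gRNA cells, so a list of this size would be near 0 at the background rate. At an unadjusted limma p under 0.05, 0 of 12, 1 of 11 and 2 of 11 tested probes of these genes passed in the 3 comparisons. Of all tested probes 1838 of 22835, 2504 of 22835 and 2725 of 22830 did. The third *Zscan4c* probe had no value in Hoxa13 gRNA cells and dropped out of the comparisons with that group. Comparisons with control share the same 3 control arrays.

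The brightest probes of *Dppa2* and *Dppa4* were bright in every group, *Dppa2* was nearly level between groups, and the *Dppa4* probes differed among themselves. *Dppa2* lies at chr16:48310274-48319513 and *Dppa4* beside it at chr16:48283735-48294292 (GRCm38.p6). The brightest *Dppa2* probe read 3.41, 3.79 and 4.23 in the control arrays, 3.97, 4.17, 3.91 and 3.63 in the Hottip gRNA arrays, and 4.01, 4.01 and 3.81 in the Hoxa13 gRNA arrays. The control arrays held both the lowest and the highest value, and the 3 groups overlapped. The difference from control was 0.11 (95% interval -0.62 to 0.84, limma adjusted p = 0.999) with Hottip gRNAs and 0.13 (-0.65 to 0.91, adjusted p = 0.891) with Hoxa13 gRNAs. Differences inside these intervals were not resolved in either direction. The second *Dppa2* probe, with 1 control array left, differed by -0.16 and -0.02.

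The brightest *Dppa4* probe read 3.78 and 4.05 in 2 control arrays (the spot of the other was left out), 4.32, 4.62, 4.09 and 3.55 in the Hottip gRNA arrays, and 4.43, 4.75 and 4.25 in the Hoxa13 gRNA arrays. The Hoxa13 gRNA arrays lay above both control values, whereas the Hottip gRNA arrays fell on both sides of them. Hottip gRNA cells differed from control by 0.23 (95% interval -0.71 to 1.16, limma adjusted p = 0.999) and Hoxa13 gRNA cells by 0.56 (-0.43 to 1.55, adjusted p = 0.600). The 3 *Dppa4* probes disagreed. The second probe read 4.06, 2.65 and 4.56 in control, 3.44, 0.79 and 4.36 in Hottip gRNA arrays (1 spot left out), and 5.65, 4.49 and 6.00 in Hoxa13 gRNA arrays. At this probe Hottip gRNA cells were below Hoxa13 gRNA cells (difference -2.52, 95% interval -4.50 to -0.54), at an unadjusted limma p of 0.0176 and an adjusted p of 0.329. The brightest probe gave -0.34 for the same comparison (95% interval -1.16 to 0.49) and the dimmest 0.09. The deviations of the *Dppa4* probes from their group means did not move together (Pearson r = -0.42 over 8 arrays between the brightest and the second, -0.33 over 9 arrays between the brightest and the dimmest, and -0.24 over 9 arrays between the second and the dimmest).

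*Dppa3*, in the cluster on chromosome 6 that also holds *Nanog* and *Gdf3* (chr6:122626424-122630271, GRCm38.p6), was close to background. Its probe read -3.11, -2.62 and -1.22 in control, -2.24, -2.39, -2.06 and -2.42 in Hottip gRNA arrays, and -2.05, -2.44 and -3.24 in Hoxa13 gRNA arrays. It was well above background on 2 of 3 control arrays, 2 of 4 Hottip gRNA arrays and 0 of 3 Hoxa13 gRNA arrays, and the control arrays spanned nearly the whole range. The differences from control were 0.04 (95% interval -1.02 to 1.09) with Hottip gRNAs and -0.26 (-1.39 to 0.87) with Hoxa13 gRNAs, at limma adjusted p of 0.999 and 0.843.

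*Dppa5a* (chr9:78367052-78368199, GRCm38.p6) had a very bright probe with, on the main scale, the widest scatter within groups among the brightest probes of the tested genes. It read 3.97, 4.53 and 6.62 in control, 5.90, 5.95, 4.91 and 4.20 in Hottip gRNA arrays, and 5.87 and 6.00 in Hoxa13 gRNA arrays (1 spot left out). Control replicates 1 and 3 were the lowest and the highest of all. Hottip gRNA cells differed from control by 0.20 (SE 0.67, 95% interval -1.29 to 1.70, limma adjusted p = 0.999) and Hoxa13 gRNA cells by 0.90 (SE 0.80, -0.89 to 2.68, adjusted p = 0.642). The bright probes of the array shifted too: the median of all tested probes with a mean level over 3, as those of *Dppa2*, *Dppa4* and *Dppa5a* have, was 0.15 in Hottip gRNA and 0.63 in Hoxa13 gRNA cells against control. The spread of the *Dppa5a* probe depended on how the arrays were scaled. Over the same arrays it covered 2.65 log2 units after scaling to the 75th percentile, 1.51 after quantile normalization, and 0.227 in the values the authors deposited. Its SD within groups was 1.00, 0.512 and 0.0798 on these scales, whereas the median of all tested probes stayed at 0.518, 0.507 and 0.538.

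**Figure D1:**
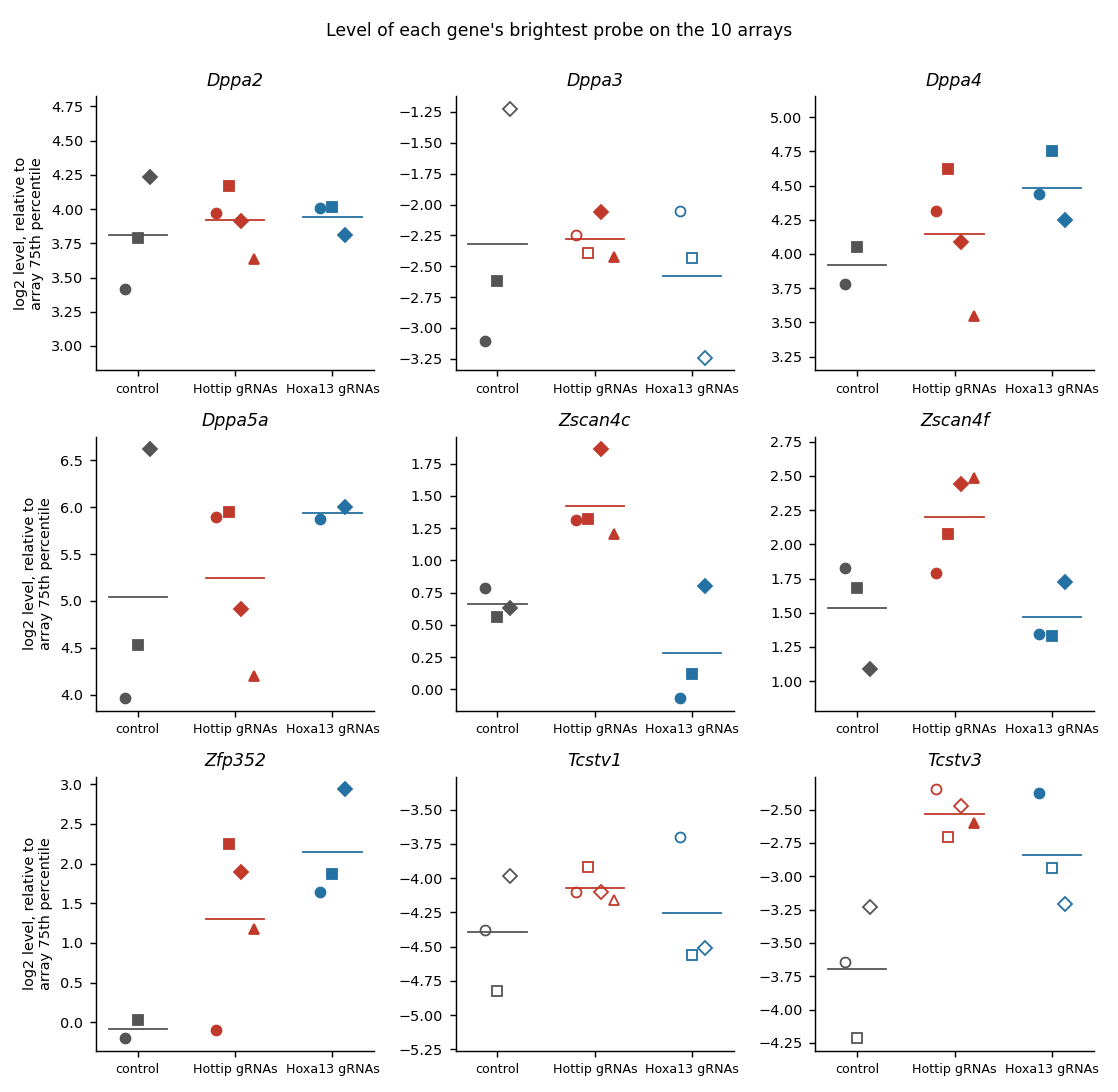
Level of the brightest probe of each gene on every array (vertical axes, log2 signal minus the 75th percentile of the array) for control, Hottip gRNA and Hoxa13 gRNA cells. Marker shape gives the replicate number (circle 1, square 2, diamond 3, triangle 4), open markers are spots not well above background, and bars are group means. Zscan4c in Hottip gRNA arrays (1.20 to 1.86) lies above both other groups (-0.07 to 0.80), whereas the groups of Dppa2, Dppa3 and Dppa5a overlap.

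The *Zscan4* genes, which encode zinc finger proteins of the 2-cell stage with a role in telomere maintenance, included the 1 tested probe whose Hottip gRNA arrays were all above both other groups, the brightest of *Zscan4c*. *Zscan4c* lies at chr7:11005745-11010547 and *Zscan4f* at chr7:11397915-11402318 (GRCm38.p6). The brightest *Zscan4c* probe read 0.79, 0.56 and 0.63 in control, 1.31, 1.32, 1.86 and 1.20 in Hottip gRNA arrays, and -0.07, 0.11 and 0.80 in Hoxa13 gRNA arrays. All 4 Hottip gRNA values were above all 6 others. The difference from control was 0.76 (SE 0.35, 95% interval -0.00 to 1.53), or 1.70-fold, with an exact permutation p of 0.0286, the smallest that 4 against 3 arrays allow, and a limma adjusted p of 0.623. Against Hoxa13 gRNA cells it was 1.14 (SE 0.35, 0.37 to 1.91), or 2.20-fold, with the same exact permutation p of 0.0286 and a limma adjusted p of 0.252. Hoxa13 gRNA cells differed from control by -0.38 (-1.20 to 0.44, limma adjusted p = 0.673). Hoxa13 gRNA replicates 1 and 2 (-0.07 and 0.11) were on a different slide from all Hottip gRNA and control arrays. Replicate 3, on the shared slide, read 0.80. The slide is therefore partly confounded with the Hoxa13 gRNA group in these differences.

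*Zscan4f* read 1.83, 1.68 and 1.09 in control, 1.79, 2.07, 2.44 and 2.48 in Hottip gRNA arrays, and 1.35, 1.33 and 1.73 in Hoxa13 gRNA arrays. Hottip gRNA replicate 1 fell just below the highest control, so these groups overlapped, but all Hottip gRNA arrays were above the Hoxa13 gRNA arrays. Hottip gRNA cells differed from control by 0.66 (SE 0.35, 95% interval -0.10 to 1.43, 1.58-fold), with an exact permutation p of 0.0857 and a limma adjusted p of 0.736. Against Hoxa13 gRNA cells the difference was 0.73 (SE 0.35, -0.04 to 1.50), with an exact permutation p of 0.0571 and a limma adjusted p of 0.431. Hoxa13 gRNA cells and control differed by -0.07 (-0.89 to 0.76). Here too Hoxa13 gRNA replicates 1 and 2 were on the other slide, and replicate 3, at 1.73, was the highest of its group. Whether the *Zscan4c* and *Zscan4f* probes read each other's transcripts was not tested, so they are not counted as separate evidence.

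The other *Zscan4c* probes were too variable to add to this. The second read 3.26, -1.98 and 0.97 in control, 0.83 and -1.56 in Hottip gRNA arrays, and 0.65 and -0.28 in Hoxa13 gRNA arrays, with the remaining 3 spots left out. Its difference between Hottip gRNA cells and control was -1.11 with an SE of 1.40. The third had all 3 of its Hoxa13 gRNA spots left out as outliers and gave 0.00 (SE 1.33) between Hottip gRNA cells and control. The residual SD of these probes was 2.07 and 2.26, larger than that of 98.3% and 98.7% of tested probes, against 0.319 for the brightest *Zscan4c* probe.

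*Zfp352*, which encodes a zinc finger protein transcribed at the 2-cell stage (chr4:90218820-90225687, GRCm38.p6), was lowest in control. Its brightest probe read -0.20 and 0.03 in 2 control arrays, -0.09, 2.24, 1.89 and 1.18 in Hottip gRNA arrays, and 1.64, 1.86 and 2.94 in Hoxa13 gRNA arrays. The third control spot was an outlier and was left out. All 3 Hoxa13 gRNA values and 3 of 4 Hottip gRNA values lay above both controls. Hoxa13 gRNA cells differed from control by 2.23 (SE 0.69, 95% interval 0.68 to 3.78, 4.70-fold), with an exact permutation p of 0.1, the smallest possible for 3 against 2 arrays, and a limma adjusted p of 0.426. Hottip gRNA cells differed from control by 1.39 (SE 0.66, -0.08 to 2.86), with an exact permutation p of 0.2 and a limma adjusted p of 0.663. In the authors' values the third control array, including its outlier spot, stood at 11.45 on the log2 scale against 9.51 and 9.51 for the other controls. The control level therefore rests on 2 arrays, and the reading that was left out was higher. On no array was the second *Zfp352* probe well above background, and it is given no fold.

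The *Tcstv* genes, which encode small proteins of the 2-cell stage on chromosome 13, were at the limit of detection. *Tcstv1* was well above background on 0 of 10 arrays. *Tcstv3* was well above background on 1 Hottip gRNA array and 1 Hoxa13 gRNA array and on no control array, at levels of -3.64, -4.22 and -3.23 in control, -2.35, -2.71, -2.48 and -2.60 in Hottip gRNA arrays, and -2.37, -2.93 and -3.21 in Hoxa13 gRNA arrays. With each control array taken at the higher of its own *Tcstv3* reading and the lowest signal that counted as detected on it, the mean was at least 1.72-fold higher in Hottip gRNA cells and at least 1.39-fold higher in Hoxa13 gRNA cells. Most of the treated readings behind these bounds were themselves below detection, and the bounds carry no test. It was detected on too few arrays to enter the adjusted test. *Zscan4d* could not be read separately.

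**Figure D2:**
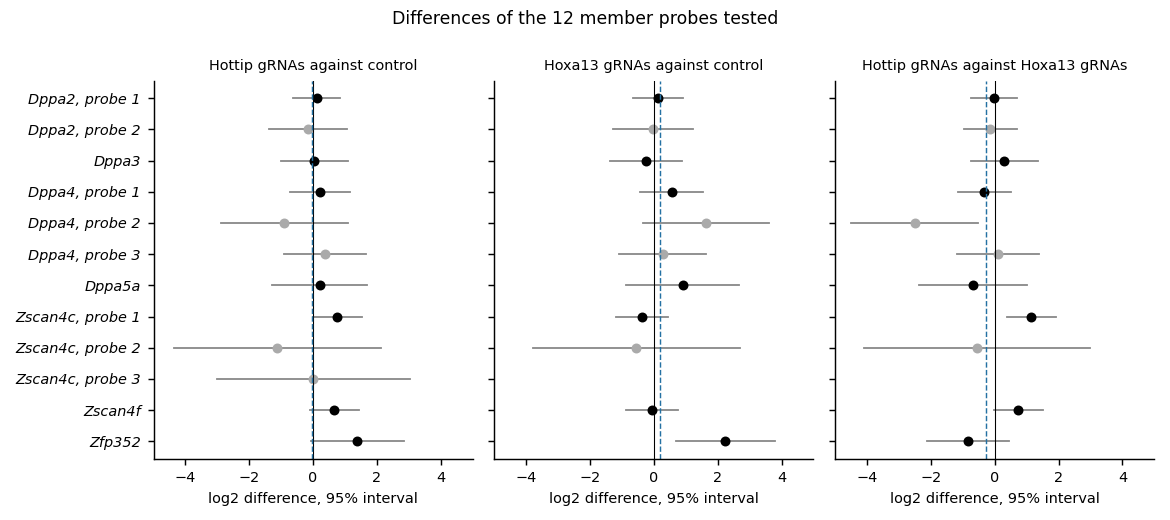
Difference between groups (horizontal axes, log2 units) for the 12 tested probes of the Dppa and 2-cell genes in the 3 comparisons, with black points for the brightest probe of a gene, grey points for its other probes, bars for the 95% interval from limma and a dashed line at the median of all tested probes. The third Zscan4c probe has no point in the comparisons with Hoxa13 gRNA cells. The interval of Zfp352 in Hoxa13 gRNA cells against control (0.68 to 3.78) and that of the brightest Zscan4c probe in Hottip gRNA against Hoxa13 gRNA cells (0.37 to 1.91) lie above 0, that of the second Dppa4 probe in the latter comparison (-4.50 to -0.54) lies below it, and none of the differences passed the adjusted test.

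Counted over probes, 1 of the 7 tested probes of these genes with a value on every Hottip gRNA and control array (the brightest of *Zscan4c*) had all its Hottip gRNA values above control, against 3.57% of all such probes. In Hottip gRNA against Hoxa13 gRNA cells 2 of 8 did so (*Zscan4c* and *Zscan4f*), against 3.14% of all such probes. These 2 probes may read each other's transcripts, so they may amount to 1 reading. In Hoxa13 gRNA cells against control 0 of 6 separated in either direction, against 18.3% of all such probes. All of the 7 genes with a tested probe were higher in Hottip gRNA cells than in control by the sign of the estimate alone (median difference 0.23, against -0.03 for all tested probes). The *Dppa* genes among them had differences of 0.04 to 0.23 with intervals that cover 0 well on both sides, and leaving out 1 array or rescaling turned the sign of *Dppa2*, *Dppa3*, *Dppa4* or *Dppa5a* in at least 1 setting. In Hoxa13 gRNA cells against control 4 of 7 were higher (median 0.13 against 0.19 for all tested probes), and in Hottip gRNA against Hoxa13 gRNA cells 3 of 7 (median -0.02 against -0.26).

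The scatter between replicates varied about as widely among these probes as over the array. The residual SD within groups was 0.270 for the brightest *Dppa2* probe, with 7.15% of tested probes smaller, and 0.319 and 0.321 for the brightest *Zscan4c* and *Zscan4f* probes. *Dppa4* had 0.361, *Dppa3* 0.625, *Zfp352* 0.834 and *Dppa5a* 1.00. The median of all tested probes was 0.518, with quartiles at 0.370 and 0.808. The place of a gene depended on the scale. In the authors' values 0.351% of tested probes were steadier than *Dppa5a*, against 83.2% on the main scale. For *Zscan4f* the share was 43.0% in the authors' values against 15.4% on the main scale, and *Zscan4c* moved likewise, to 39.8%.

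**Figure D3:**
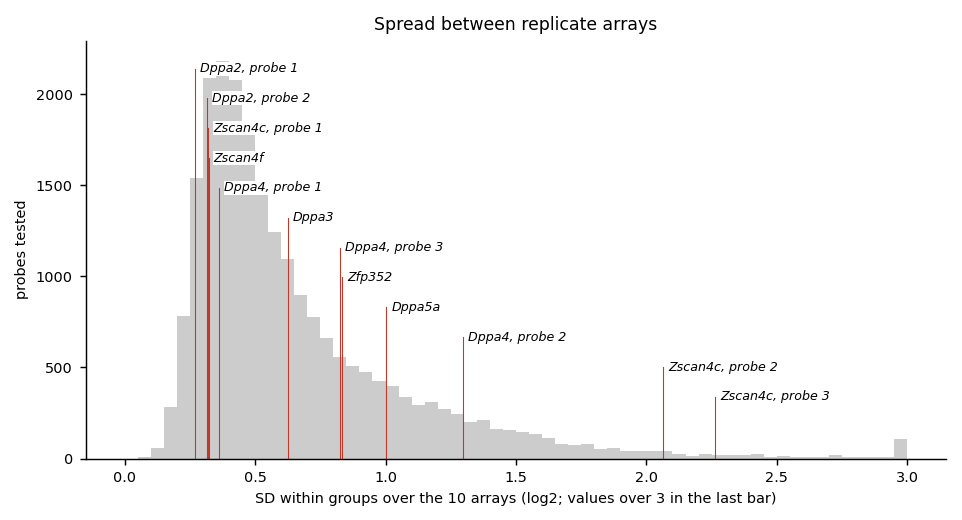
Residual SD within groups (horizontal axis, log2 units, values over 3 in the last bar) of all tested probes as a histogram (vertical axis, number of probes), with vertical lines at the 12 tested probes of the Dppa and 2-cell genes. The brightest probes of Dppa2 (0.270), Zscan4c (0.319) and Zscan4f (0.321) lie below the median of 0.518, and the weaker Zscan4c probes (2.07 and 2.26) lie in the upper tail.

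Some of the genes moved together from array to array within groups, and the pattern changed with the scaling. On the 75th percentile scale the deviations of *Dppa2* and *Dppa5a* from their group means correlated at r = 0.92 (Spearman 0.87, 9 arrays; 0.80 without the 2 arrays farthest out), and those of *Dppa2* and *Dppa4* at r = 0.80 (Spearman 0.87, 9 arrays; 0.87 without 2). *Zscan4f* ran opposite to *Dppa2*, at r = -0.81 (Spearman -0.88, 10 arrays; -0.69 without 2). On the scale of the authors' values the same pairs gave -0.38, 0.47 and 0.14, and after quantile normalization 0.34, 0.36 and 0.10. *Zscan4c* and *Zscan4f*, by comparison, gave 0.47 on the first scale (Spearman 0.33, 10 arrays; 0.14 without 2), 0.30 after quantile normalization and 0.83 in the authors' values. These are descriptions over points that share the array, its scaling and, for *Zscan4c* and *Zscan4f*, possibly transcripts.

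The genes whose deviations were most like those of *Dppa2*, *Dppa3*, *Dppa4*, *Dppa5a* and *Zscan4f* were picked among 6383 candidate probes, detected on all arrays, as a further description. For *Dppa2* they were *Laptm4a*, *Nono* and *Ndufa2* (r = 0.98 for each, 10 arrays). For *Dppa5a* they were *Rps19*, a ribosomal protein gene (r = 1.00 when rounded, 9 arrays), *H2ac15* (0.997) and *Tpt1* (0.996). For *Dppa3* they were *Atxn2l* (0.97), *Avpr2* (0.95) and *Kmt5c* (0.95) over 10 arrays. For *Dppa4* they were *Pdia3* (0.98), *Chchd2* (0.95) and *Rbm3* (0.94) over 9 arrays, and for *Zscan4f* they were *Rnf19b*, *Aga* and *Gm10767* (0.95 each, 10 arrays). Candidates needed both detection and a value on every array, and among the 10 genes only the brightest probes of *Dppa2*, *Zscan4c* and *Zscan4f* had both. The other genes could therefore not appear, and none of these was among the nearest genes of another. The genes named had the highest r among 6383 candidates, and how high such values run by chance was not tested. The search used the main scale alone. On it the *Dppa5a* probe had an SD within groups of 1.00, against 0.0798 in the authors' values. The r of *Dppa2* with *Dppa5a* was 0.92 and -0.38 on these scales. Whether the nearest genes would stay the same on another scale was not tested.

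Other genes of the 2-cell-like state were then counted, as a list of 44 genes of which 29 had a probe and 14 a tested one. In Hottip gRNA cells 11 of the 14 were above control, with a median difference of 0.61 against -0.03 for all tested probes, and 0 passed limma's adjusted test. In Hoxa13 gRNA cells 6 of 14 were above control (median -0.25 against 0.19). Hottip gRNA cells were above Hoxa13 gRNA cells for 10 of 14 (median 1.06 against -0.26). A gene that is detected only in the group where it is high can enter the test through that group, so the 8 genes that were well above background on all 10 arrays were counted apart. Of these, 6 were above control in Hottip gRNA cells (median 0.57 against -0.00 for all such probes), 4 in Hoxa13 gRNA cells (-0.12 against 0.27), and 5 were higher in Hottip gRNA than in Hoxa13 gRNA cells (0.85 against -0.30). Over 18 other settings, 10 of them leaving out 1 array, the median of the 14 genes stayed between 0.50 and 0.88 in Hottip gRNA cells against control. The slide as a block and leaving out a Hoxa13 gRNA array cannot move that median, so agreement there was fixed in advance. The 8 genes detected on all arrays were not followed over these settings. Against Hoxa13 gRNA cells the median of the 14 stayed between 0.76 and 1.41. Over the same settings at most 1 of the 14 passed the adjusted test in Hottip gRNA cells against control, and at most 2 against Hoxa13 gRNA cells. The list holds other *Zscan4* copies and families of like genes, so its genes are not independent readings.

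Single genes of this list went both ways. *Gm4340* and *Zscan4a*, named after their values were seen as were the genes that were lower, were detected on all arrays. *Gm4340* read 0.17, 0.20 and 0.43 in control, 0.94, 1.31, 1.11 and 1.30 in Hottip gRNA arrays, and -0.41, -0.42 and -0.09 in Hoxa13 gRNA arrays. Its 3 groups did not overlap, and the difference was 0.90 (SE 0.31, limma adjusted p = 0.378) from control and 1.47 (SE 0.31, adjusted p = 0.0901) from Hoxa13 gRNA cells. *Zscan4a*, a further copy of the *Zscan4* cluster, differed from control by 1.28 (SE 0.44, adjusted p = 0.426) in Hottip gRNA cells and by 0.41 (SE 0.49, adjusted p = 0.737) in Hoxa13 gRNA cells. *Usp17lb*, a deubiquitinase gene, read -3.84, -4.69 and -4.43 in control, -3.26, -2.59, -2.16 and -2.46 in Hottip gRNA arrays, and -4.04, -4.68 and -4.98 in Hoxa13 gRNA arrays, with 1, 2 and 0 arrays well above background. Its Hottip gRNA values all lay above the rest, but most readings of every group were below detection, and the fitted difference from control of 1.70 (SE 0.40, adjusted p = 0.119) rests on them. *Tmem92*, which encodes a membrane protein, gave 1.78 (SE 0.65, adjusted p = 0.446) with 1, 3 and 1 arrays well above background in control, Hottip gRNA and Hoxa13 gRNA cells. *B020031M17Rik* differed from control by 0.46 in Hottip gRNA cells and by 1.62 (SE 0.75, adjusted p = 0.459) in Hoxa13 gRNA cells, where it read 5.93, 5.34 and 2.63 against 2.78, 2.82 and 3.43 in control. The lowest Hoxa13 gRNA value lay below all controls, so these groups overlapped. That value came from replicate 3, the only Hoxa13 gRNA array on the slide of the controls. The remaining 3 genes of the 14 were lower than control in Hottip gRNA cells by the estimate, *Ddit4l* at -0.99 (SE 0.51, adjusted p = 0.728), *Gm2016* at -0.93 (SE 0.86, adjusted p = 0.970) and *Sp110* at -0.22.

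**Figure D4:**
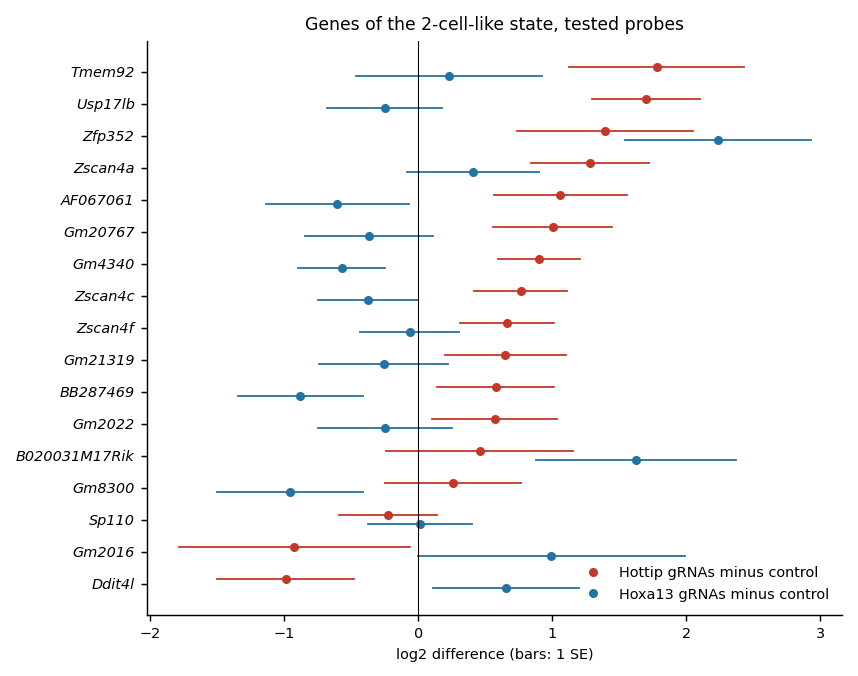
Difference of Hottip gRNA (red) and of Hoxa13 gRNA (blue) cells from control (horizontal axis, log2 units) for the 14 tested genes of the wider 2-cell list together with Zscan4c, Zscan4f and Zfp352, with bars of 1 SE. Of the 14 genes 11 lie above 0 in Hottip gRNA cells (median 0.61) and 6 in Hoxa13 gRNA cells (median -0.25), and none passed the adjusted test.

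Genes known to hold the 2-cell-like state down, such as the histone methyltransferase *Setdb1*, the co-repressor *Trim28* and the chromatin assembly factor subunits *Chaf1a* and *Chaf1b*, lay on both sides of 0 as a list. Of 26 tested genes 12 were above control in Hottip gRNA cells (median -0.05 against -0.03 for all tested probes) and 18 in Hoxa13 gRNA cells (0.18 against 0.19), and 0 passed the adjusted test. Over the 18 other settings at most 1 passed in Hottip gRNA cells and 0 in Hoxa13 gRNA cells. The largest difference was that of *Max*, a partner of Myc and of the PRC1.6 complex. *Max* read 4.40, 2.91 and 4.23 in control, 2.98, 0.10 and 0.20 in Hottip gRNA arrays (1 spot left out), and 4.75 and 3.44 in Hoxa13 gRNA arrays (1 spot left out). Its difference from control was -2.75 in Hottip gRNA cells (SE 0.83, limma adjusted p = 0.319) and 0.25 in Hoxa13 gRNA cells. *Ncl*, the nucleolar protein nucleolin, and *Setdb1* were higher than control by the estimate in both, at 0.83 and 1.61 for *Ncl* and 1.03 and 1.17 for *Setdb1* in Hottip gRNA and Hoxa13 gRNA cells respectively (adjusted p of 0.610 and 0.259, and of 0.732 and 0.468).

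Genes related to single *Dppa* members by family, position or target class did not pass the adjusted test either. Of the KH domain relatives of *Dppa5a*, *Khdc3*, a member of the subcortical maternal complex, differed from control by -0.39 (SE 0.45, limma adjusted p = 0.997) in Hottip gRNA cells, and *Ooep*, of the same complex, by -0.96 (SE 0.53, adjusted p = 0.771). Of the neighbours of *Dppa3*, 1 of 4 was above control in Hottip gRNA cells and 4 of 4 in Hoxa13 gRNA cells. The pluripotency factor *Nanog* differed by 0.56 (SE 0.44, adjusted p = 0.930) and 1.74 (SE 0.47, adjusted p = 0.340), the growth factor *Gdf3* by -0.18 and 0.52, and the glucose transporter *Slc2a3* by -0.25 and 0.23. The median of these neighbours in Hoxa13 gRNA cells was 0.38, but ranged from -0.12 to 0.57 over the other settings. Of 15 tested germ cell genes, 12 were above control in Hottip gRNA cells (median 0.26) and 10 in Hoxa13 gRNA cells (median 0.32). *Syce1*, a synaptonemal complex gene, differed by 1.56 (SE 0.89, adjusted p = 0.792) and 1.77 (SE 0.89, adjusted p = 0.472), and the germ cell helicase gene *Ddx4* by 0.30 and 1.63. The ribosomal protein gene *Rpl10l* differed by 0.57 and 1.03.

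The cells carried the markers of ESCs. All 17 ESC markers were well above background on every array, and their summed level was 8.01 to 8.79 in control, 7.86 to 8.83 in Hottip gRNA arrays and 8.84 to 9.19 in Hoxa13 gRNA arrays. A left-out marker spot adds nothing to this sum or to those below, so arrays with left-out markers read too low. Of these markers 10 of 17 were above control in Hottip gRNA cells (median 0.18) and 15 of 17 in Hoxa13 gRNA cells (median 0.61), the latter between 4 and 16 of 17 over the other settings. The medians of all tested probes with a mean level over 3 were 0.15 and 0.63 in the same comparisons, close to those of the markers. Trophoblast genes were also higher in the Hottip gRNA group, and a link with the *Zscan4* probes from array to array was not tested. Of 9 such genes 7 were tested and 7 were above control in Hottip gRNA cells (median 2.72), and 3 passed the test, against 0.718% of all tested probes. Counted apart, the 3 genes well above background on all 10 arrays were all above control, with a smaller median of 0.88 (-0.00 for all such probes). The transcription factor *Cdx2* was at least 14.3-fold higher (limma adjusted p = 0.00105) and the keratin *Krt7* at least 4.45-fold higher (adjusted p = 0.00684), both well above background on all 4 Hottip gRNA arrays and 0 of 3 control arrays, so that they entered the test mainly through the Hottip gRNA group. *Gata3*, detected on 2 of 3 control arrays, was higher by 2.72 (adjusted p = 0.00649). In Hoxa13 gRNA cells 6 of 7 were above control (median 0.92) and 0 passed. Their summed level was 3.06 to 3.46 in control, 3.63 to 5.25 in Hottip gRNA arrays and 3.49 to 4.92 in Hoxa13 gRNA arrays, and 2 of the 9 genes, *Elf5* and *Hand1*, were below detection throughout. Hottip gRNA replicate 1 (3.63) lacked its *Krt8* and *Tfap2c* spots, and Hoxa13 gRNA replicate 2 (3.49) its *Krt8* spot. Summed endoderm markers ranged from 2.68 to 6.40 in control, 2.91 to 3.54 in Hottip gRNA arrays and 2.61 to 2.65 in Hoxa13 gRNA arrays. The highest control sum came from 1 spot, *Dab2* on control replicate 3, at 6.27 against -0.38 and -0.92 on the other controls. The endoderm factor *Gata6* was also higher on the Hottip gRNA arrays, at 2.78, 1.78, 2.80 and 2.36 against 1.11, 0.70 and 0.51 in control and 0.61, 0.31 and 0.85 in Hoxa13 gRNA arrays (difference from control 1.66, SE 0.37, limma adjusted p = 0.0925). Of 7 tested endoderm genes 4 were above control in Hottip gRNA cells and 3 were below, *Dab2* (-3.35), *Lama1* (-1.10) and *Pdgfra* (-0.18). In the adjusted test 0 of the 7 passed against control, and 1 did with quantile normalization. Fibroblast markers ranged from -0.20 to 1.41, -0.06 to 2.81 and 0.47 to 1.28, with 2 of the 7 genes, *Postn* and *Lum*, below detection throughout and *Col3a1*, *Thy1*, *Col1a1* and *Dcn* tested. Neural markers ranged from 1.64 to 3.84, 1.55 to 2.96 and 2.62 to 3.26, and none of the mesoderm markers was tested. The part of other cell types in the levels of the *Dppa* and 2-cell genes was not tested.

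*Zscan4c*, *Zscan4f* and *Zfp352* kept the direction of their difference between Hottip gRNA cells and either other group under all 28 other settings, whereas *Dppa2*, *Dppa3*, *Dppa4* and *Dppa5a* did not for Hottip gRNA cells against control. Several settings cannot move an estimate, such as the detection filters, a fit of only the groups compared and leaving out an array of the third group. For Hottip gRNA cells against control the slide settings cannot either, as all these arrays shared a slide. Agreement in such settings was fixed in advance. Hottip gRNA cells differed from control by 0.17 to 1.03 for *Zscan4c*, 0.41 to 0.93 for *Zscan4f* and 1.08 to 2.49 for *Zfp352*. The lowest *Zscan4c* value is the mean over its probes, which includes the variable ones. Against Hoxa13 gRNA cells the ranges were 0.59 to 1.47, 0.47 to 1.08 and -1.63 to -0.38. In Hoxa13 gRNA cells against control *Zfp352* ranged from 1.73 to 3.13, while *Zscan4c* and *Zscan4f* changed sign once the slide was taken into account (0.14 and 0.19).

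**Figure D5:**
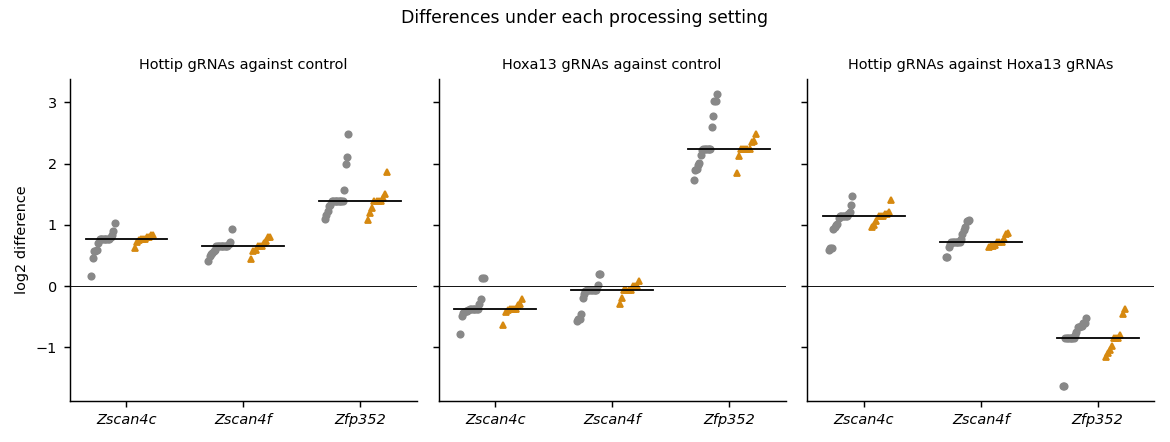
Difference between groups (vertical axis, log2 units) for Zscan4c, Zscan4f and Zfp352 in the 3 comparisons, with a bar at the value of the main setting, orange triangles for the 10 settings that leave out 1 array and grey circles for the 18 others. In Hottip gRNA cells against control all points of the 3 genes lie above 0 (lowest 0.17), and in Hoxa13 gRNA cells against control those of Zscan4c and Zscan4f lie on both sides of it.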

How the data were processed

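RNA of E14 ESCs was hybridised to 10 single-colour Agilent arrays. Per the file headers, Feature Extraction 11.5.1.1 gave an intensity for each spot, already background-subtracted, with flags for outliers and for signal well above background. A table of log2 values normalized by the authors was used only as an alternative. For each array, log2 of the processed intensity minus its 75th percentile over all non-control spots was taken, outlier spots were left out, and spots of 1 probe were averaged. With R 4.3.3 and limma 3.58.1, lmFit and eBayes were run on all 55681 probes and 10 arrays with 3 group means, and p-values were adjusted (Benjamini-Hochberg) over 22844 probes that 3 or more arrays read well above background. A call needed an adjusted p under 0.05. A gene was read from its probe with the highest mean, and other probes are given where they differ. Exact permutation tests are two-sided on the difference of means. Replicates are called biological in the labels, and their number limits the precision. The script was tested on simulated data. Genes were matched by transcript accession to RefSeq (GRCm38.p6), while the array design names an older build, so coordinates are those of RefSeq. Of each other list, genes called and, of the rest, the 3 with the largest absolute difference from control were named. The members and all gene lists were chosen with earlier results of these data known. No column of per-sample values was left unused (0). Alternatives were other scalings and background corrections, the detection filter, the slide or the replicate number as a block, array weights and leaving out each array. A fit over tested probes alone, normexp with quantile normalization, and subtraction of the median of the surrounding 11 by 11 spots were added after the data had been seen.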

Additional observations from a re-analysis of the deposited data

How the results depend on the processing

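Each difference was recomputed under 28 other settings, 10 of them leaving out 1 array, and of 588 recomputed differences 526 kept their direction and call, 57 changed sign and 5 passed the threshold. Settings that change only the test or the probes tested leave the estimate as it was, so its direction was kept there by design. The probes called stayed at 0 except with array weights (4 in Hottip gRNA and 2 in Hoxa13 gRNA cells against control, among them *Zscan4c* at 0.91, limma adjusted p = 0.00574). That weighting did not converge and gave control replicate 2 a weight of 64.1 against 0.155 to 1.80 for the others. Scaling moved the median of all tested probes in Hottip gRNA cells against control from -0.13 to 0.22, in Hoxa13 gRNA cells against control from -0.22 to 0.23.

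For Hottip gRNA cells against control, *Dppa2* became -0.046 in the authors' values, -0.075 with normexp, -0.041 with normexp and quantile normalization, -0.20 with a local median subtracted and -0.034 as the mean of its probes. *Dppa3* became -0.030 when scaled over probes detected on all arrays, and *Dppa4* -0.21 with quantile normalization and -0.11 with normexp and quantile normalization.

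For Hoxa13 gRNA cells against control, *Dppa2* became -0.31 with quantile normalization, -0.26 scaled over detected probes, -0.34 in the authors' values, -0.022 with normexp, -0.00188 with the slide as a block or on 1 slide alone, -0.34 with normexp and quantile normalization and -0.00580 with a local median subtracted. *Dppa4* became -0.29 with quantile normalization and -0.13 with normexp and quantile normalization, and *Dppa5a* -0.21 in the authors' values. *Zscan4f* became 0.013 with median centring and 0.19 with the slide as a block or alone, where *Zscan4c* became 0.14. On that slide alone the Hoxa13 gRNA group is 1 array, assumed to vary like the others.

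For Hottip gRNA against Hoxa13 gRNA cells, *Dppa2* became 0.34 with quantile normalization, 0.16 with median centring, 0.31 scaled over detected probes, 0.29 in the authors' values, 0.11 with the slide as a block or alone, 0.065 with array weights and 0.30 with normexp and quantile normalization. *Dppa4* became 0.078, 0.027, 0.027 and 0.10 with quantile normalization, the authors' values, normexp and quantile normalization, and a local median subtracted. *Dppa5a* became 0.014 with quantile normalization and 0.25 in the authors' values.

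Leaving out 1 array gave, in Hottip gRNA cells against control, -0.087 to 0.32 for *Dppa2* (below 0 without control replicate 1), -0.36 to 0.58 for *Dppa3* (without control replicate 1 or 2 or Hottip gRNA replicate 3) and -0.33 to 0.99 for *Dppa5a* (without control replicate 1 or 2 or Hottip gRNA replicate 1 or 2). In Hoxa13 gRNA cells against control it gave -0.065 to 0.34 for *Dppa2* (below 0 without control replicate 1), -0.66 to 0.29 for *Dppa3* (above 0 without control replicate 3 or Hoxa13 gRNA replicate 3) and -0.29 to 0.081 for *Zscan4f* (above 0 without control replicate 1 or 2 or Hoxa13 gRNA replicate 2). In Hottip gRNA against Hoxa13 gRNA cells it gave -0.10 to 0.073 for *Dppa2* (above 0 without Hottip gRNA replicate 4 or Hoxa13 gRNA replicate 1 or 2) and -0.035 to 0.56 for *Dppa3* (below 0 without Hoxa13 gRNA replicate 3). The cause of these changes was not tested.

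The replicate numbers did not pair the arrays: the deviations of same-numbered arrays correlated between -0.37 and 0.18, and 0 of 10 arrays were closest to one of their own number. With the replicate block the 10 genes had 0 calls, *Zscan4c* differed from control by 0.84 in Hottip gRNA cells, and *Dppa2* by 0.073 between Hottip gRNA and Hoxa13 gRNA cells. Calls over all probes in Hottip gRNA cells against control fell from 164 to 13 with that block, to 5 when probes had to be detected on all arrays and to 83 in the authors' values, and were 414 with the slide as a block and 6806 with array weights.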
